A study of Mus musculus with 6 samples.

Results

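Voltage-gated sodium channel subunits were followed in mouse pancreatic islets as 7 genes taken by name, Scn1a, Scn3a, Scn8a and Scn9a, which encode pore-forming α subunits, and Scn2b, Scn3b and Scn4b, which encode auxiliary β subunits. Each name matched 1 of the 54532 rows of the deposited gene table, and the table held 7 further genes of the family. Poly-A RNA was sequenced from islets of mice aged 7 weeks in 2 groups of 3 samples, and a sample pooled the islets of 3 mice. The mutant group was labelled Wtap-βKO, a loss of Wtap in the insulin-producing β cells, and its controls were labelled Wtap flox/flox, which carry the recombination sites around an intact gene. The labels name no Cre line or promoter and do not say whether the mutants are otherwise flox/flox on the same background. WTAP is a subunit of the nuclear enzyme complex that writes N6-methyladenosine on RNA.

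A voltage-gated sodium channel consists of a single large α subunit that forms the sodium pore and 1 or more small β subunits, which are membrane proteins with an immunoglobulin-like outer domain that alter gating and carry the channel to the membrane. The α subunit opens within a fraction of a millisecond of depolarisation and then inactivates, when a short loop between its last domains plugs the pore. In mouse islets, sodium currents contribute to the upstroke of action potentials in α cells and, under some conditions, in β cells, and Scn3a and Scn9a have been described there as the main α-subunit genes.

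The α-subunit messages resemble each other closely, which bears on how reads were assigned to them. Over the whole coding sequence (GENCODE M21 transcripts), a global alignment gave 74.7% identity between Scn3a and Scn9a, 70.1% between Scn3a and Scn8a and 78.5% between Scn3a and Scn1a, whereas Scn3b was 46.9% identical to Scn2b and 48.2% to Scn4b. The longest identical stretch in any of their transcripts was 184 bases between Scn3a and Scn9a, longer than a single read of 150 bases, against 55 bases between Scn3a and Scn8a. Of all 50-base words in the Scn3a transcripts, 6.49% also occurred in transcripts of another gene, as did 4.16% of those of Scn9a, 4.03% of those of Scn1a and 0.0374% of those of Scn8a. Scn3b and Scn4b shared none, and Scn2b shared 1.01%. Reads from the shared parts of Scn3a, Scn9a and Scn1a could have been split or dropped, and the sources used here do not state how the authors treated them.

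The α-subunit genes Scn3a, Scn1a and Scn9a lie in 1 cluster on the minus strand of mouse chromosome 2 (GRCm38), with Scn3a at 65457118 to 65567627, Scn1a at 66270778 to 66440840 and Scn9a at 66480080 to 66634962. Scn8a lies apart on chromosome 15 at 100869858 to 101045938 on the plus strand. The β-subunit genes Scn3b (40269217 to 40291618), Scn2b (45117782 to 45130070) and Scn4b (45138395 to 45154152) lie on the plus strand of chromosome 9, the last pair next to each other. An antisense gene, Gm13629, shares 180 exonic bases with Scn9a and averaged 0.156 FPKM. The library protocol does not mark strand, so reads from those bases cannot be told apart. No other member shares exonic bases with another annotated gene.

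Depth, as whole reads recovered from the deposited values, ran over 16353297 to 18682745 reads a sample. Values are FPKM (fragments per kilobase of gene, scaled by the authors), so levels can be set side by side between genes. The library size behind that scaling was 1.04 to 1.07 times the recovered reads in the mutants and 0.952 to 0.988 times in the controls. Wtap itself was 11.2, 11.9 and 12.3 FPKM in the libraries labelled Wtap-βKO, against 10.5, 11.4 and 11.6 FPKM in those labelled Wtap flox/flox, with overlapping groups (log2 fold change 0.07 with SE 0.063, limma's adjusted p = 0.475). The labels do not say which part of Wtap was removed or what share of islet cells lost it, so a value over the whole gene may check nothing, and directions are those of the libraries as labelled. Replicate 2 labelled Wtap-βKO stood apart from the others of its group, its chi-square statistic over genes, divided by the degrees of freedom, being 19.5 and 18.5 against them, where the pairs without it gave 5.57 to 6.88.

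Of the 7 members, 5 passed the filter of a mean of 0.5 FPKM over all 6 samples and were tested by limma among 15927 genes. Scn3a and Scn3b rose in the libraries labelled Wtap-βKO, no member was called lower, and Scn9a, Scn8a and Scn2b did not pass the test. Over all genes tested, 8.77% were called higher and 11.3% lower at an adjusted p under 0.05 (Benjamini-Hochberg over all genes), and the groups did not overlap in 19.1% of genes in the higher direction and 22.1% in the lower. Scaled to total recovered reads, 68.1% of all calls were higher in place of 43.7%, with the same 2 members called. Both were also called without replicate 2 labelled Wtap-βKO.

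**Figure D1:**
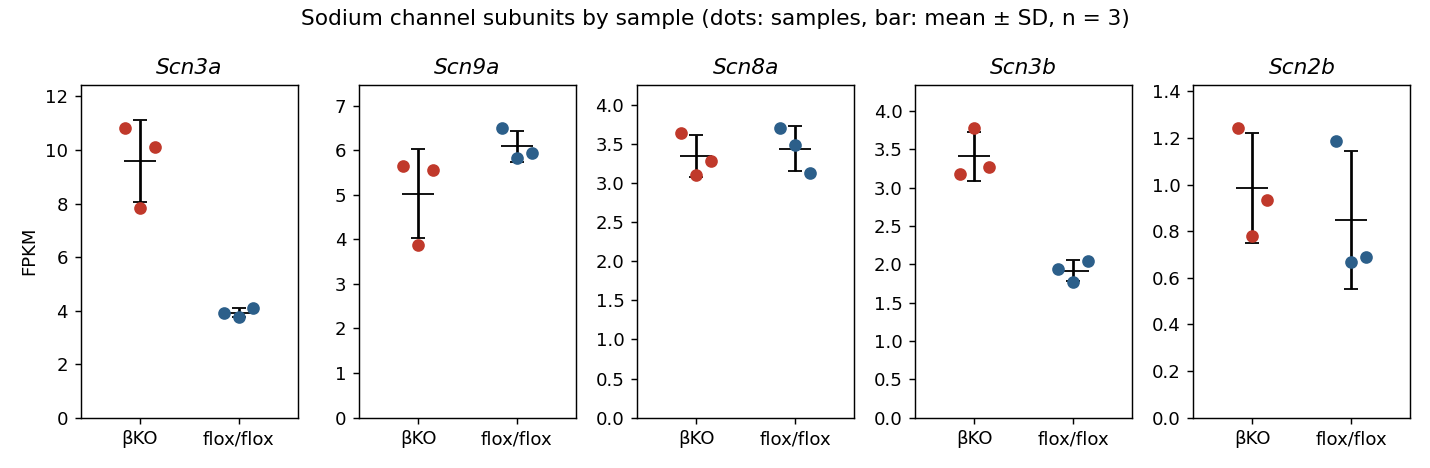
FPKM of the 5 tested members (vertical axes start at 0, a scale for each gene) in the 3 libraries labelled Wtap-βKO (red, left) and the 3 labelled Wtap flox/flox (blue, right), with mean ± SD. The groups are clearly apart for Scn3a (9.59 against 3.92 FPKM) and Scn3b (3.41 against 1.92 FPKM), narrowly apart for Scn9a and overlapping for Scn8a and Scn2b.

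Scn3a encodes an α subunit abundant in the developing nervous system. It was 10.8, 7.85 and 10.1 FPKM in replicates 1 to 3 labelled Wtap-βKO, against 3.92, 3.76 and 4.09 FPKM in those labelled Wtap flox/flox. Every mutant value stood above every control value, and replicate 2 was the lowest of the mutants. The values rested on 2539, 1751 and 2172 reads in the libraries labelled Wtap-βKO, against 856, 739 and 906 reads in the controls. Scn3a averaged 9.59 ± 1.55 FPKM in the mutants and 3.92 ± 0.166 FPKM in the controls (SD, n = 3 each), 2.45-fold higher, with a log2 fold change of 1.10 on the log2(FPKM + 1) scale (SE 0.113, 95% interval 0.83 to 1.36, adjusted p = 0.00155 by limma). It was the highest of the members in each library labelled Wtap-βKO.

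Scn9a, known for its part in pain-sensing neurons, was 5.64, 3.87 and 5.56 FPKM in the libraries labelled Wtap-βKO, against 6.49, 5.83 and 5.93 FPKM in the controls. All mutant values were below all control values, but 2 of them by little, and replicate 2 was well below. The mean was 5.02 ± 1.002 FPKM in the mutants and 6.08 ± 0.355 FPKM in the controls (SD, n = 3 each). The log2 fold change was -0.25 (SE 0.13, 95% interval -0.55 to 0.06, adjusted p = 0.221 by limma), and -0.10 without replicate 2 labelled Wtap-βKO. The difference did not pass the test, and its interval spans 0.

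Scn8a, whose product sits at the axon initial segment and nodes of Ranvier of neurons, was 3.64, 3.10 and 3.29 FPKM in the libraries labelled Wtap-βKO, against 3.70, 3.49 and 3.13 FPKM in the controls. The groups overlapped. The log2 fold change was -0.031 (SE 0.086, 95% interval -0.24 to 0.17, adjusted p = 0.832 by limma), and 0.057 when scaled to total recovered reads, so no direction is given.

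Scn1a, an α subunit best known from inhibitory neurons of the brain, was low in all 6 libraries. It had 28, 8 and 7 reads in the libraries labelled Wtap-βKO, against 18, 8 and 17 reads in the controls, or 0.0364 to 0.133 FPKM against 0.0454 to 0.0922 FPKM. The groups overlapped, and the reads summed to 43 in both. Its mean was below the filter. In the fit of all 29669 genes above 0, with no filter, its log2 fold change was -0.0071 (SE 0.047, adjusted p = 0.949 by limma), on a scale that understates changes at such levels.

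Among β subunits, Scn3b, which binds the α subunit without a disulfide bond, was 3.18, 3.77 and 3.27 FPKM in the libraries labelled Wtap-βKO, against 1.93, 1.77 and 2.05 FPKM in the controls. All mutant values were above all control values, on 308 to 369 reads per mutant library and 153 to 199 per control library. The mean was 3.41 ± 0.322 FPKM in the mutants and 1.92 ± 0.138 FPKM in the controls (SD, n = 3 each), 1.78-fold higher, with a log2 fold change of 0.59 (SE 0.089, 95% interval 0.38 to 0.80, adjusted p = 0.00580 by limma).

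Scn2b, which is joined to the α subunit by a disulfide bond, was 1.24, 0.780 and 0.934 FPKM in the libraries labelled Wtap-βKO, against 1.19, 0.666 and 0.688 FPKM in the controls. The groups overlapped, and the libraries numbered 1 were the highest of each group. The log2 fold change was 0.11 (SE 0.16, 95% interval -0.27 to 0.48, adjusted p = 0.667 by limma).

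Scn4b, the other disulfide-linked β subunit, was scarcely detected. It had 0, 1 and 0 reads in the libraries labelled Wtap-βKO and 3, 2 and 1 reads in the controls. All 6 values were at or below the floor of 3 reads, which is 0.0319 to 0.0381 FPKM for this gene, so no fold is given. The fit with no filter did not call it (adjusted p = 0.570 by limma). Neighbouring Scn2b, by contrast, had 49 to 109 reads in every library.

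The order of the members by level differed between the groups. In the libraries labelled Wtap-βKO the order by mean FPKM was Scn3a, Scn9a, Scn3b, Scn8a, Scn2b, Scn1a and Scn4b, and the values of Scn3b and Scn8a overlapped. In those labelled Wtap flox/flox it was Scn9a, Scn3a, Scn8a, Scn3b, Scn2b, Scn1a and Scn4b, with Scn3a (3.76 to 4.09 FPKM) just above Scn8a (3.13 to 3.70 FPKM).

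The make-up of the α-subunit messages was therefore compared as shares of their summed FPKM in each library. Scn3a took 53.5%, 52.8% and 53.2% of the sum of the 4 α-subunit members in the libraries labelled Wtap-βKO, against 27.6%, 28.6% and 30.9% in the controls. The replicates of a group lay within a few percentage points, replicate 2 labelled Wtap-βKO included. Scn9a took 27.7% ± 1.64 in the mutants and 45.0% ± 0.641 in the controls (SD, n = 3 each). Scn8a took 18.7% ± 1.90 in the mutants and 25.4% ± 1.58 in the controls. For each of these 3 genes the groups did not overlap (two-sided exact permutation test over samples, p = 0.1, the smallest that 3 against 3 samples allow). Shares sum to a fixed total, so a higher Scn3a share lowers the others by construction, and the lower Scn8a and Scn9a shares are no separate result. Scn1a took 0.373% in the mutants and 0.548% in the controls, with overlapping groups (exact permutation p = 0.4).

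**Figure D2:**
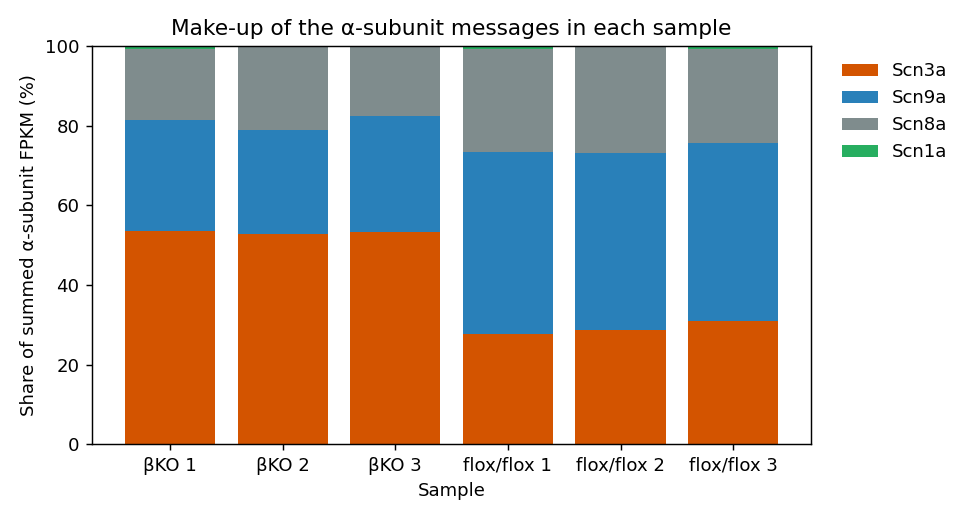
Share of each α-subunit member in the summed FPKM of the 4 (vertical axis, percent) in each library, those labelled Wtap-βKO at the left and those labelled Wtap flox/flox at the right. The Scn3a part fills 52.8% to 53.5% of the mutant bars and 27.6% to 30.9% of the control bars.

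The ratio of Scn3a to Scn9a was 1.92, 2.03 and 1.82 in the libraries labelled Wtap-βKO, against 0.604, 0.644 and 0.689 in the controls. All mutant ratios were above 1 and all control ratios below it (exact permutation p = 0.1, the smallest possible). Set against all 10 α-subunit genes of the family, Scn3a took 46.7%, 44.8% and 44.5% in the mutants and 24.5%, 26.2% and 27.2% in the controls. The sum of the 4 α-subunit members was 20.2, 14.9 and 19.0 FPKM in the libraries labelled Wtap-βKO, against 14.2, 13.1 and 13.2 FPKM in the controls. That of the 3 β-subunit members was 4.42, 4.57 and 4.20 FPKM in the mutants, against 3.16, 2.47 and 2.75 FPKM in the controls. Neither sum overlapped between the groups (exact permutation p = 0.1 for each). These sums are no result apart from Scn3a and Scn3b, the only members called. The mean of Scn9a was lower in the mutants (5.02 against 6.08 FPKM), a difference that did not pass the test. The groups overlapped for Scn8a (3.34 against 3.44 FPKM) and for Scn2b.

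The values are those of whole islets, in which fewer cells of a type and less RNA per cell cannot be told apart. Markers of the islet cell types also differed between the groups, in both directions. Over all genes tested, limma called 8.77% higher and 11.3% lower. All 12 β-cell markers were detected and 10 fell, among them Mafa and Slc2a2, with a summed level of 82106 to 92675 FPKM in the libraries labelled Wtap-βKO and 135548 to 155828 FPKM in the controls. Ins2 and Iapp were not called (adjusted p = 0.190 and 0.935 by limma), though the groups did not overlap for Ins2. The count of β-cell markers called lower ran from 9 to 11 over the 16 alternatives. Most of the β-cell sum was Ins2, at 56847 FPKM in the mutants and 89397 FPKM in the controls. All 10 α-cell markers were detected and 5 rose, with a summed level of 34128 to 44960 FPKM in the mutants and 21566 to 25759 FPKM in the controls. Tm4sf4 and Slc7a2 of that list had log2 fold changes of -0.054 and -0.13, neither past the threshold (adjusted p = 0.659 and 0.286 by limma). Most of the α-cell sum was Gcg, the glucagon gene, at 36405 FPKM in the mutants and 22504 FPKM in the controls. Gcg had a log2 fold change of 0.69 and was not called (adjusted p = 0.0890 by limma), though its groups did not overlap. The count of α-cell markers called higher ran from 4 to 7 over the 16 alternatives. Of the 6 δ- and PP-cell markers 3 rose, with a summed level of 18470, 34652 and 19519 FPKM in the mutants and 15582 to 17463 FPKM in the controls. Replicate 2 labelled Wtap-βKO stood far above the others in that sum. The count was 3 without that library, but 1 without mutant replicate 3 or without any 1 control. The part of these shifts in the rise of Scn3a and Scn3b was not tested.

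Cells of nerves could also carry sodium channel messages. Of 12 glial and neuronal markers 11 were tested, with 1 called higher (Nefm) and 2 lower (Th and Elavl4), the count of lower markers being 1 without any 1 library other than mutant replicate 2. Their summed level was 60.1 to 66.8 FPKM in the libraries labelled Wtap-βKO and 83.0 to 94.8 FPKM in the controls. The Schwann-cell factor Sox10 averaged 1.37 FPKM in the mutants and 0.988 FPKM in the controls, with overlapping groups. Of the other marker lists, 1 of 6 tested acinar markers, 1 of 5 ductal, 3 of 6 mesenchymal and stellate, 0 of 6 endothelial and 1 of 5 macrophage markers rose, and none of them fell. Lists so short cannot tell a count of 1 from the 8.77% of all genes tested called higher. The acinar count was 5 without control replicate 3 and 0 without mutant replicate 1 or 2 or control replicate 1 or 2. The endothelial count was 1 without mutant replicate 2, and the mesenchymal count was 2 without mutant replicate 1 or 3 or control replicate 1 or 2. The summed levels of these lists were 152 to 218 FPKM (acinar), 67.8 to 97.3 FPKM (ductal), 67.0 to 75.9 FPKM (mesenchymal), 199.985 to 223 FPKM (endothelial) and 91.1 to 97.9 FPKM (macrophage) in the mutants. In the controls they were 85.2 to 156 FPKM, 54.4 to 62.3 FPKM, 46.5 to 56.1 FPKM, 178 to 211 FPKM and 76.9 to 84.5 FPKM in the same order. Their part in the result was not tested either.

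Scn2a, Scn4a, Scn7a, Scn10a and Scn11a, further α-subunit genes of the family, were mostly low. Scn7a, which encodes a sodium-sensing channel of glia and other cells that is not opened by voltage, was 1.82, 1.80 and 2.51 FPKM in the mutants, against 1.47, 0.751 and 1.46 FPKM in the controls (log2 fold change 0.46 with SE 0.17, limma's adjusted p = 0.104).

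Scn4a, the α subunit of skeletal muscle, had 82, 63 and 86 reads in the libraries labelled Wtap-βKO, against 0, 10 and 2 reads in the controls. The groups were far apart, though at 0.609 ± 0.105 FPKM in the mutants and 0.0353 ± 0.0480 FPKM in the controls (SD, n = 3 each) the gene was below the filter. The ratio of the means was 17.2, with 76.2 when control replicate 2 was left out and 11.5 or 13.5 when control replicate 1 or 3 was. In the fit without a filter, over 29669 genes, its log2 fold change was 0.63 (adjusted p = 0.00776 by limma). Scn2a had 65, 13 and 47 reads in the mutants and 26, 29 and 31 reads in the controls. Scn11a had 15 to 18 reads in the mutants and 15 to 19 in the controls, and Scn10a had 0 reads in all 6 libraries. In the same fit Scn2a and Scn11a had log2 fold changes of 0.056 and -0.020 and were not called (adjusted p = 0.706 and 0.823).

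**Figure D3:**
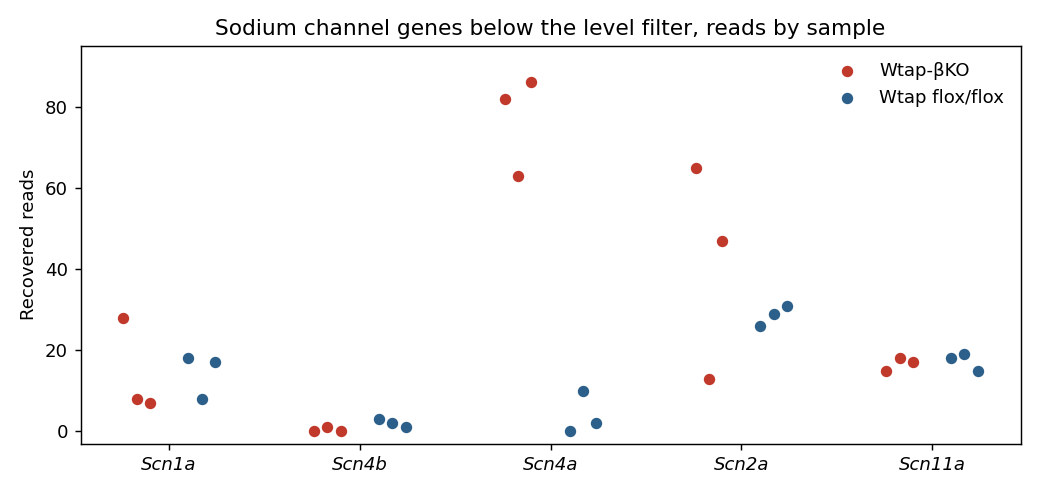
Recovered reads (vertical axis) of the sodium channel genes below the level filter, with the 3 libraries labelled Wtap-βKO (red, left) and the 3 labelled Wtap flox/flox (blue, right) for each gene. Scn4a had 63 to 86 reads in the mutants and 0 to 10 in the controls, while Scn1a, Scn2a and Scn11a overlapped and Scn4b had at most 3 reads.

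Beside the counts for this and the following lists, limma called 8.77% of all genes tested higher and 11.3% lower. Of the 4 intracellular FGF-homologous factors, which bind the tail of the α subunit and alter its inactivation, all were tested, 2 rose and none fell. Fgf12 averaged 20.2 ± 2.83 FPKM in the libraries labelled Wtap-βKO and 8.39 ± 0.960 FPKM in the controls (SD, n = 3 each), 2.41-fold higher (log2 fold change 1.17 with SE 0.11, limma's adjusted p = 0.00124). Fgf11 averaged 1.53 ± 0.174 FPKM in the mutants and 0.814 ± 0.0629 FPKM in the controls (log2 fold change 0.48 with SE 0.10, limma's adjusted p = 0.0210). Its call was lost in 7 of 16 alternatives, among them without any 1 library other than mutant replicate 2, with adjusted p of 0.0524 to 0.0658. Fgf14 and Fgf13 had log2 fold changes of 0.28 and 0.21, neither past the threshold (limma's adjusted p = 0.178 and 0.462). The median log2 fold change of the 4 was 0.38, beside -0.0054 over all genes tested.

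**Figure D4:**
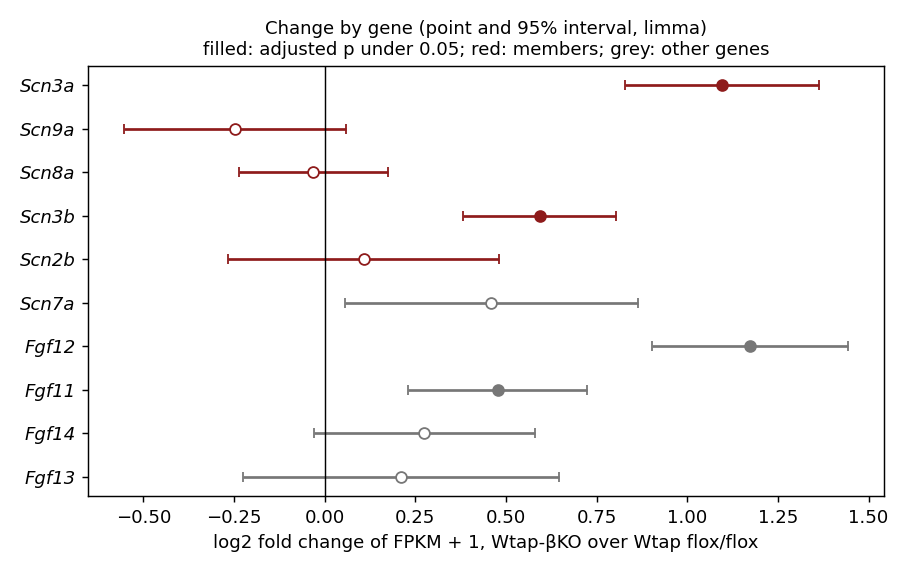
Log2 fold change of FPKM + 1, libraries labelled Wtap-βKO over those labelled Wtap flox/flox (horizontal axis), with 95% intervals from limma, for the 5 tested members (red), Scn7a and the 4 FGF-homologous factors (grey). Filled points, Scn3a, Scn3b, Fgf12 and Fgf11, passed an adjusted p of 0.05.

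Among 9 membrane anchors and adhesion partners, 3 fell and none rose, with a median log2 fold change of -0.085. Ank2, an ankyrin that ties membrane proteins to spectrin, fell to 3.30 ± 0.311 FPKM in the mutants, against 4.84 ± 0.0959 FPKM in the controls (adjusted p = 0.00974 by limma). Cntn1, a contactin that binds β subunits at the cell surface, fell 1.68-fold (adjusted p = 0.00384), and the spectrin gene Sptbn4, of axon initial segments, 1.43-fold (adjusted p = 0.0215). The call of Sptbn4 was lost without mutant replicate 1 or 3 and without control replicate 1 or 2 (adjusted p of 0.0684, 0.0705, 0.0631 and 0.0713). Ptprz1, a receptor phosphatase, had a log2 fold change of 0.36 (adjusted p = 0.123).

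Of 11 tested trafficking and binding partners, 1 fell and none rose, a count near the 11.3% of all genes tested called lower. This was S100a10, the annexin partner that carries some sodium channels to the membrane, at 14.4 ± 2.94 FPKM in the mutants and 27.99 ± 2.05 FPKM in the controls (log2 fold change -0.93 with SE 0.13, limma's adjusted p = 0.00504). Gpd1l, Dpysl2 and Dlg1 had log2 fold changes of -0.24, -0.22 and -0.20, none past the threshold (adjusted p = 0.0593, 0.0697 and 0.0699). Of 8 enzymes and cofactors that cleave β subunits, 1 rose and 2 fell. Bace2 fell 1.40-fold (adjusted p = 0.00662) and Psen2, of the γ-secretase complex, 1.21-fold (adjusted p = 0.0384), and nicastrin, Ncstn, rose 1.21-fold (adjusted p = 0.0135). The Psen2 call was lost in 9 of 16 alternatives, without any 1 library other than mutant replicate 2 among them (adjusted p of 0.0863 to 0.116). That of Ncstn was lost without mutant replicate 3 and without control replicate 1 or 2 (0.0519, 0.0564 and 0.0547).

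Of 9 tested regulators of sodium channel transcription and splicing, 2 fell and none rose. The splicing repressor gene Ptbp1 averaged 30.6 ± 1.43 FPKM in the mutants and 42.3 ± 0.725 FPKM in the controls (adjusted p = 0.00252 by limma), and the neural splicing factor gene Srrm4 fell 1.74-fold (adjusted p = 0.0126). Rcor1, a cofactor of the neuronal gene repressor REST, and Rbfox2 had log2 fold changes of -0.38 and -0.14 (adjusted p = 0.0664 and 0.0953).

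Other routes for sodium were counted beside the channels. With all samples, none of the 4 genes of the sodium leak channel complex was called in either direction by limma, and none had an unadjusted p under 0.05. Without mutant replicate 1, 1 of them was called lower. Unc80 averaged 26.4 ± 4.06 FPKM in the mutants and 30.1 ± 0.826 FPKM in the controls (adjusted p = 0.240), and Nalcn, its pore subunit, Fam155a and Unc79 had adjusted p of 0.263, 0.322 and 0.981. Of 10 tested genes of the sodium pump and sodium-calcium exchangers, 4 rose and 1 fell, with a median log2 fold change of 0.22. The pump regulator gene Fxyd3 rose 2.84-fold (adjusted p = 0.00402), Atp1b1 rose 1.21-fold (adjusted p = 0.0295) and Atp1b2 fell 1.32-fold (adjusted p = 0.0222). The calls of Atp1b1 and Atp1b2 were each lost in 7 of 16 alternatives. For Atp1b1 these included leaving out any 1 library other than control replicate 3 (adjusted p of 0.0512 to 0.0923), and for Atp1b2 any 1 other than mutant replicate 2 (0.0584 to 0.0767).

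Likeness to Scn3a over the 6 libraries was ranked among the genes tested. Pseudogenes and names that start with Gm and a digit or end in Rik were left out. The closest were Igkv15-103, an immunoglobulin κ variable gene, Gatm, which makes the precursor of creatine, and Spon2, a secreted matrix protein. Their root mean square differences from Scn3a in log2(FPKM + 1), each gene centred on its mean, were 0.0727, 0.0817 and 0.0867. Igkv15-103 was only 0.894 to 1.56 FPKM in the mutants and was listed at 0 in all 3 controls, so its closeness depends on the 1 added to each value. Gatm was 25.7 to 29.6 FPKM in the libraries labelled Wtap-βKO and 11.6 to 13.5 FPKM in the controls, and Spon2 was 17.3 to 20.2 FPKM in the mutants and 7.69 to 9.44 FPKM in the controls.

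As a feature of the messages, the sequence GGACT, 1 form of the motif at which N6-methyladenosine is written, was counted on the transcript strand of the transcript with the longest coding sequence. Scn3a held 10 copies (1.05 per kilobase) and Scn3b 4 copies (0.964 per kilobase). Among the members that were not called, Scn9a held 15 copies (1.52 per kilobase), Scn8a 11 copies (0.962 per kilobase) and Scn2b 8 copies (1.72 per kilobase). The median over 12692 tested protein-coding genes was 1.05 per kilobase, and 91.3% of them held at least 1 copy. The match is a description of letters only, and methylation itself was not measured in these libraries.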

How the data were processed

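The authors deposited 1 table of FPKM values, with a column per sample and a gene length per row, per the file headers. CASAVA, DESeq2 1.20.0, featureCounts 1.5.0-p3 and HISAT2 2.0.5 are listed without roles in the submitters' processing notes, with the build as GRCm38 or mm10. Libraries were made with poly-T beads and random primers, per the labels' protocols. Multiplied by gene length and divided by the value of a single read, 100% of 142743 values above 0 came out whole (within 0.01 read, in proportion more above 1000 reads), which gave the recovered reads. Floors cover counting error only. The labels call the samples independent biological replicates.

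FPKM was used as deposited, as log2(FPKM + 1), for genes with a mean of at least 0.5, so log2 fold changes understate those of low genes. The test was limma 3.58.1 (R 4.3.3), two-sided, with a variance trend and Benjamini-Hochberg adjustment over all 15927 genes, threshold 0.05, and scripts were tested on simulated data. Adjusted p-values come from it, or, for genes below the filter and for named alternatives, from limma fits of the same kind with that setting changed. Folds are ratios of mean FPKM. Shares and sums were compared by exact permutation over samples.

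The members, the 8 pathway lists and the 9 marker lists were chosen with earlier results of these data known. Up to 4 genes of each pathway list with a mean of at least 1 FPKM and the smallest adjusted p are named, with sodium channel genes and the 3 genes most like Scn3a. Some genes and sequences that this rule covers are not reported here. Genes named from marker lists were chosen after their values were seen. GENCODE M21 gave the same coordinates as the deposited table for all 14 sodium channel genes. Alignments used Biopython 1.88, and tables and figures pandas 2.3.3 and matplotlib 3.10.9. Alternatives were other scalings, pseudocounts and filters, no variance trend, voom on recovered reads, a replicate block and leaving out each sample.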

Additional observations from a re-analysis of the deposited data

How the results depend on the processing

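Scn3a and Scn3b were called higher in all 16 alternatives of each, with log2 fold changes of 1.01 to 1.28 and 0.53 to 0.82, and Scn9a, Scn8a and Scn2b were called in none. Among these, median-of-ratios scaling (by a sample's median ratio to the geometric mean of each gene) is no separate check. Its factor was 1.0074 in every sample, so it repeats the main fit. The sign of Scn8a turned to 0.057 when scaled to total recovered reads, and it ran from -0.082 to 0.011 as single samples were left out. Over all genes, 1397 were called higher and 1798 lower, against 2336 and 1093 scaled to total recovered reads. Leaving out single samples gave 774 to 1379 higher and 1020 to 1834 lower, and of the 57 pathway-list genes tested 3 to 7 higher and 6 to 11 lower (7 and 10 with all samples). Fewer samples enter those fits. Scaling to total reads replaces the library sizes behind the deposited values, above the recovered reads in every mutant and below in every control. The shift in calls follows that change of scaling, and which scaling is nearer the RNA of the cells was not tested. The shares and sums kept their direction in all 7 alternatives of each. Of 544 list counts, 461 stayed within 1.5 times.

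The replicate numbers are shared by the groups in name. Same-numbered samples had correlations of deviations of 0.0293, 0.0377 and 0.0185, and every sample correlated best with its own number. All these correlations were small, and mutant replicate 3 had 0.0132 with control replicate 1. They cannot decide whether samples were paired, and the labels call the samples independent. With the replicate block, 1148 genes were higher and 1490 lower, and Scn3a and Scn3b were called (adjusted p = 0.00788 and 0.0250 by limma). Depth limits Scn1a and Scn4b, and 3 samples a group limit shares and sums, whose exact p cannot go under 0.1.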
